A study of Homo sapiens with 42 samples.

Results

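DDB2, DDB1, XPC, POLH, POLK and REV3L code for proteins that meet damaged bases in DNA: DDB2, DDB1 and XPC find the lesion for excision, and POLH, POLK and REV3L copy the DNA strand past it. The 6 genes were chosen by name, with earlier results of these data known. They were taken out of 18404 genes that the value table could name by a single gene symbol, and each of the 6 had 1 probe set. They were followed over 24 h in 2 human lung cancer cell lines. The measurement was the messenger RNA level on 42 one-colour Affymetrix arrays, each made from 100 ng of total RNA, and every level below is on the log2 scale of the deposited values.

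The first line was H460, a large-cell lung carcinoma line that the series calls radiosensitive, with 6 arrays at 0 h, labelled as from before irradiation, and 3 at each of 5 times, which were 2, 4, 8, 12 and 24 h after a dose of 2 Gy of gamma radiation. The second was H1299, a non-small cell lung carcinoma line that the series calls radioresistant, with the same numbers of arrays at the same hours after the same dose. Arrays of 1 group are labelled as biological replicates. The protocol also mentions unirradiated control cells kept for the same hours, and whether any of the 0 h arrays held such cells cannot be told from the labels. No array is labelled as unirradiated at a later hour, so an effect of the dose and one of hours in culture cannot be told apart. In bulk RNA, fewer expressing cells and less RNA per cell cannot be told apart either.

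Nucleotide excision repair removes a short stretch of the strand that carries a bulky or helix-distorting lesion. DDB2 and DDB1 form the damage-binding complex that hands ultraviolet photoproducts to XPC, and XPC opens the helix for the repair factors that follow. When a replication fork reaches a lesion that has not been removed, translesion polymerases take over from the replicative enzyme. DNA polymerase eta (POLH) and kappa (POLK) insert a base across from the lesion, and REV3L, the catalytic subunit of DNA polymerase zeta, extends from it. In human cells p53 is known to raise transcription of DDB2, XPC and POLH after damage.

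The arrays carried the keratins of epithelial lines: KRT8 averaged 12.2 in H460 and 10.7 in H1299, and KRT18 averaged 12.1 in H460 and 12.0 in H1299. KRT19 averaged 11.4 in H460 and 5.18 in H1299. Of mesenchymal markers VIM averaged 11.3 in H460 and 12.0 in H1299, FN1 12.1 in H460 and 7.30 in H1299, and CDH2 5.15 in H460 and 8.90 in H1299. The epithelial EPCAM lay at 3.99 in H460 and 3.65 in H1299, and CDH1 at 3.82 in H460 and 3.62 in H1299. In H460 and H1299 in turn, the lung markers averaged 3.96 and 3.81 for NKX2-1, 4.56 and 4.36 for SFTPB, 5.27 and 4.97 for SFTPC, and 5.01 and 4.75 for SCGB1A1. Leukocyte markers averaged 2.73 and 2.62 for PTPRC, 3.84 and 3.55 for CD3E, and 5.955 and 4.66 for CD14. Fibroblast markers averaged 6.69 and 6.15 for COL1A1, 6.12 and 5.03 for COL3A1, 3.05 and 2.84 for DCN, and 3.57 and 2.45 for LUM. The values came with no detection calls, so no level of background could be set. Array width, taken as the interquartile range of an array's log2 values, differed between times: in H460 it was 3.14 to 3.63 at 0 h, 2.75 to 2.97 at 2 h, 3.29 to 3.39 at 4 h, and 3.60 to 3.73 from 8 to 24 h. In H1299 it was 3.24 to 3.69 at 0 h, with replicate 2 lowest, and 3.41 to 3.93 at later times. Within groups all 6 genes were higher on wider arrays, by 0.22 per unit of width for DDB2 and by 1.22 for POLK. Each change of the 6 genes was therefore also fitted with array width as a term of the model ("beside array width"), while CDKN1A, MDM2 and the genes of the wider lists were not. The H460 widths at 2 h overlapped those of no other time in that line, so there a change and array width can hardly be told apart. In H1299 widths were 3.76 to 3.88 at 8 h and 3.76 to 3.93 at 12 h, above all at 0 h. In H460 the widths at 12 h also lay above all at 0 h. Those at 8 and 24 h in H460 overlapped 0 h only through 0 h replicate 6. At these times too a change and array width are hard to tell apart.

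The 2 p53 targets given as a check of the lines were CDKN1A, the inhibitor of cyclin-dependent kinases, and MDM2, a ubiquitin ligase. At 4 h CDKN1A was at 9.01, 9.41 and 8.52 in H460, against 7.16 to 7.49 on the 6 H460 arrays at 0 h. Its change from 0 h was 1.62 ± 0.128 in H460 (limma, adjusted p = 1.06e-08), and exceeded that in H1299 by 1.41 ± 0.146 (limma, adjusted p = 2.44e-08). MDM2 rose by 1.12 ± 0.107 at 4 h in H460 (limma, adjusted p = 3.23e-07). In H1299 MDM2 also rose, at 2, 4, 8, 12 and 24 h, by 0.36 ± 0.059 at 8 h (limma, adjusted p = 8.3e-05). CDKN1A rose in H1299 by 0.20 at 8 h (limma, adjusted p = 0.0441) and by 0.42 at 24 h (adjusted p = 0.000262). At 24 h the CDKN1A change in H460 exceeded that in H1299 by 0.11 (limma, adjusted p = 0.672). The group means of CDKN1A and MDM2 in H460 were both highest at 4 h.

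A gene is called changed where its adjusted p from limma is under 0.05, adjusted by Benjamini-Hochberg over all 18404 genes of the comparison, and errors after ± are model standard errors. In H460, 3 of the 6 genes were called lower at 2 h, where 23.7% of all genes were called lower. At 4 h in H460, 3 of 6 were called higher, against 1.37% of all genes. At 8 h 4 of 6 were higher, against 10.7%, at 12 h 6 of 6, against 16.7%, and at 24 h 3 of 6, against 16.2%. In H1299, 2 of 6 were higher at 2 h, against 5.88% of all genes, and 2 of 6 at 4 h, against 10%. At 8 h in H1299, 4 were higher and 1 lower, against 15% and 9.54% of all genes, and at 12 h 3 were higher and 1 lower, against 16.6% and 13.1%. At 24 h in H1299 2 were higher and 1 lower, against 8.53% and 3.21%. The genes were chosen with results of these data known, so these shares describe them and support nothing further.

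**Figure D1:**
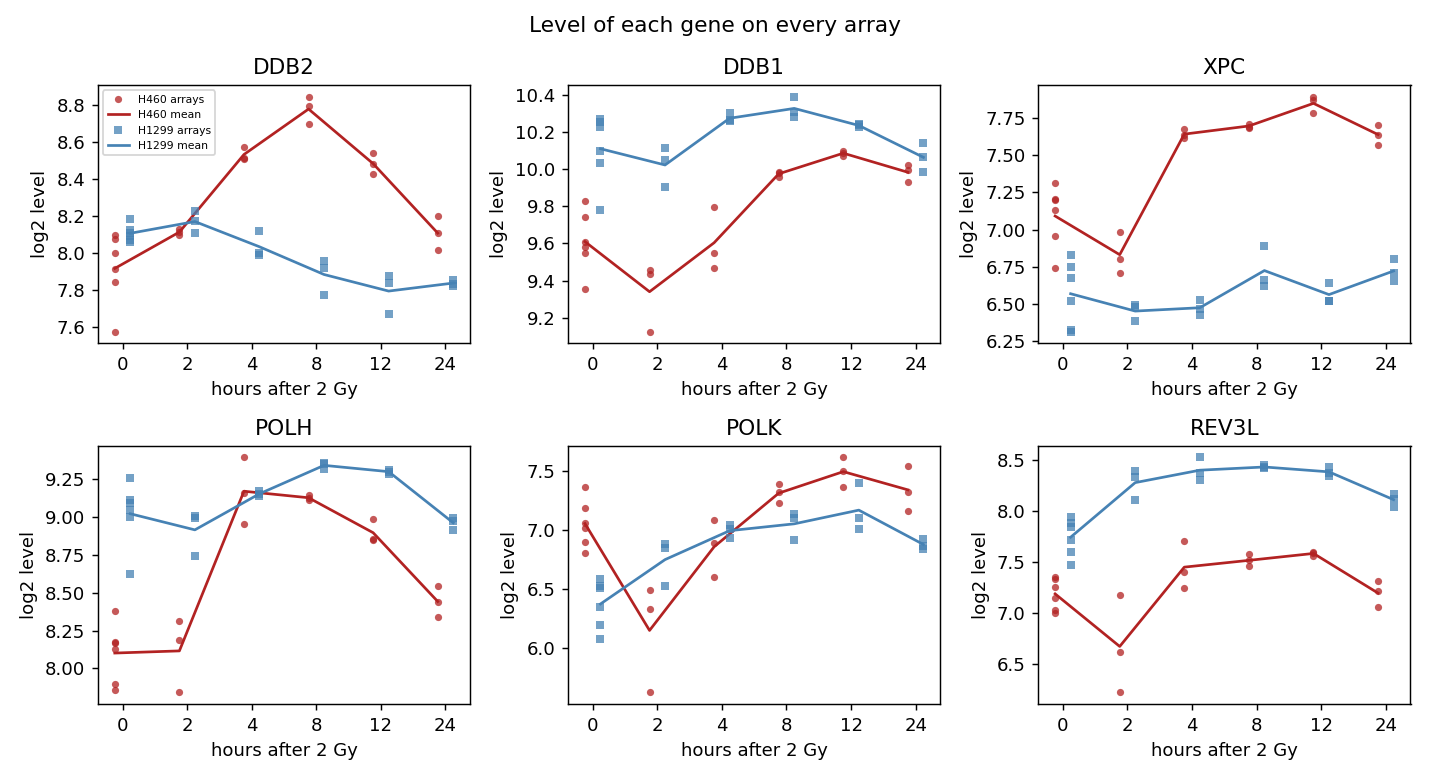
Level of each of the 6 genes on every array, on the log2 scale of the deposited values (vertical axis), by hours after 2 Gy (horizontal axis, evenly spaced categories). Circles are H460 arrays, squares are H1299 arrays and lines join group means. DDB2 in H460 peaks at 8 h and its H1299 arrays at 8, 12 and 24 h lie below those at 0 h, while REV3L lies lower in H460 than in H1299 at every time.

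DDB2, the damage-binding subunit that recognises photoproducts, rose in H460 and fell in H1299. Its gene lies at chr11:47214454-47239217 (GRCh38.p14). In H460 the 6 arrays at 0 h ran between 7.58 and 8.10 with a median of 7.96, and those at 2 h read 8.12, 8.13 and 8.10. Later H460 arrays read 8.51, 8.57 and 8.52 at 4 h, 8.69, 8.84 and 8.79 at 8 h, 8.48, 8.54 and 8.43 at 12 h, and 8.11, 8.20 and 8.02 at 24 h. The arrays at 4, 8 and 12 h lay above every 0 h array, and those at 2 and 24 h overlapped them. In order of mean level, 8 h stood first and did not overlap 4 h, while 4 and 12 h overlapped each other.

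Relative to 0 h, DDB2 in H460 rose by 0.61 ± 0.0993 at 4 h (1.53-fold; limma, adjusted p = 0.00107), by 0.86 at 8 h (1.81-fold; adjusted p = 5.13e-06) and by 0.56 at 12 h (1.48-fold; adjusted p = 0.000222). The changes were 0.20 at 2 h (limma, adjusted p = 0.117) and 0.19 at 24 h (adjusted p = 0.15). DDB2 at 2 h was called after quantile normalization, at 0.45 (limma, adjusted p = 0.00149), and at 0.20 in 1 fit of all 42 arrays (adjusted p = 0.0397) and 0.19 with array weights (adjusted p = 0.04). Fitted together with array width, the changes were 0.61 at 4 h and 0.73 at 8 h (limma, adjusted p = 0.00462), both called, and 0.42 at 12 h (adjusted p = 0.0904), no longer called.

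In H1299 DDB2 ran between 8.06 and 8.18 at 0 h with a median of 8.10. It read 8.18, 8.23 and 8.11 at 2 h, 8.12, 7.99 and 8.00 at 4 h, 7.92, 7.78 and 7.96 at 8 h, 7.88, 7.67 and 7.84 at 12 h, and 7.83, 7.83 and 7.86 at 24 h. Every H1299 array at 8, 12 and 24 h lay below every 0 h array. DDB2 fell by 0.22 ± 0.0625 at 8 h (limma, adjusted p = 0.0112), by 0.31 at 12 h (0.806-fold; adjusted p = 0.000516) and by 0.27 at 24 h (adjusted p = 0.0051), and all 3 calls held beside array width. Without H1299 8 h replicate 2 the 8 h change was -0.17 (limma, adjusted p = 0.102).

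One of the 2 start sites that RefSeq lists for DDB2 has a pair of p53 half-sites just after it, shown because DDB2 is the gene of the set with the largest difference between the lines at 8 h. The site lies on the plus strand at chr11:47214979-47214999, from base 6 to base 26 of the transcript (GRCh38.p14). Capitals mark the 2 half-sites, which hold 0 mismatches and have 1 base between them.
DDB2 site: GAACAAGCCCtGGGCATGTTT

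XPC, the damage sensor that starts repair anywhere in the genome, rose in H460 from 4 h on. The gene lies at chr3:14145147-14178601. Its 6 H460 arrays at 0 h ran between 6.74 and 7.31 with a median of 7.17, and at 2 h the arrays read 6.80, 6.98 and 6.71. At 4 h they read 7.68, 7.62 and 7.63, at 8 h 7.69, 7.71 and 7.68, at 12 h 7.89, 7.87 and 7.78, and at 24 h 7.64, 7.57 and 7.70. All 12 H460 arrays at 4 to 24 h lay above every 0 h array. The 12 h mean was highest and its arrays did not overlap those at 8 h, the next in order.

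The changes of XPC in H460 were 0.55 ± 0.107 at 4 h (1.46-fold; limma, adjusted p = 0.00509), 0.60 at 8 h (adjusted p = 0.00069), 0.76 at 12 h (1.69-fold; adjusted p = 1.84e-05) and 0.55 at 24 h (adjusted p = 0.000483). The value at 2 h was -0.26 (limma, adjusted p = 0.0552), and leaving out H460 0 h replicate 1 or 2 or H460 2 h replicate 2 brought a call there, with changes between -0.33 and -0.29. XPC in the model with array width was called at 4 h (0.55) and 12 h (0.59; limma, adjusted p = 0.0213), and had 0.46 at 8 h (adjusted p = 0.153) and 0.40 at 24 h (adjusted p = 0.0811).

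In H1299 XPC ran between 6.32 and 6.83 at 0 h with a median of 6.60. Later arrays read 6.50, 6.39 and 6.48 at 2 h, 6.47, 6.43 and 6.53 at 4 h, 6.66, 6.62 and 6.89 at 8 h, 6.52, 6.64 and 6.52 at 12 h, and 6.71, 6.65 and 6.80 at 24 h. The arrays of all 5 later times overlapped those at 0 h. Changes of XPC in H1299 ran between -0.12 and 0.16 and 0 of 5 were called by limma (adjusted p between 0.272 and 0.972, unadjusted p between 0.139 and 0.955).

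POLH, the polymerase that copies accurately past thymine dimers and is missing in the variant form of xeroderma pigmentosum, had the largest change of the 6 genes at 4 h in H460. The gene lies at chr6:43576185-43620523. Its 0 h arrays in H460 ran between 7.86 and 8.38 with a median of 8.15, and at 2 h they read 8.32, 8.19 and 7.84. At 4 h they read 9.39, 8.96 and 9.16, at 8 h 9.11, 9.14 and 9.13, at 12 h 8.85, 8.99 and 8.85, and at 24 h 8.55, 8.34 and 8.44. Arrays at 4, 8 and 12 h lay above all at 0 h, and those at 24 h overlapped them. The 4 h and 8 h arrays overlapped each other, and 8, 12 and 24 h were separate steps in descending order.

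Relative to 0 h, POLH in H460 rose by 1.07 ± 0.118 at 4 h (2.10-fold; limma, adjusted p = 3.86e-06), by 1.03 at 8 h (2.04-fold; adjusted p = 5.13e-06), by 0.80 at 12 h (1.74-fold; adjusted p = 3.32e-05) and by 0.34 at 24 h (1.27-fold; adjusted p = 0.0325). The 24 h call ended without H460 0 h replicate 2 or 5 or any 1 of the 3 arrays at 24 h, with changes between 0.29 and 0.39 (limma, adjusted p between 0.0551 and 0.138). The values beside array width were 1.06 at 4 h and 0.74 at 8 h (adjusted p = 0.00704), both called, but 0.48 at 12 h (adjusted p = 0.0727) and 0.052 at 24 h (adjusted p = 0.901).

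In H1299 POLH started higher, between 8.62 and 9.26 at 0 h with a median of 9.07. It read 8.75, 8.99 and 9.01 at 2 h, 9.17, 9.15 and 9.14 at 4 h, 9.35, 9.36 and 9.32 at 8 h, 9.30, 9.31 and 9.29 at 12 h, and 8.97, 8.92 and 9.00 at 24 h. Arrays at 8 and 12 h lay above all at 0 h. POLH rose by 0.32 ± 0.0875 at 8 h (1.25-fold; limma, adjusted p = 0.00921) and by 0.28 at 12 h (1.21-fold; adjusted p = 0.0186). Beside array width these were 0.10 (limma, adjusted p = 0.407) and 0.049 (adjusted p = 0.719). Without H1299 12 h replicate 1 or 2 the 12 h change was 0.27 to 0.28 (limma, adjusted p between 0.0519 and 0.0734), and without H1299 0 h replicate 2 a fall of 0.19 at 2 h was called (adjusted p = 0.031).

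The sequences upstream of DDB2, XPC and POLH are shown together because these 3 genes were the ones called at 4 h in H460. Each is the 250 bases that end 1 base before a RefSeq start site (GRCh38.p14), in lower case throughout since no p53 half-site was found in them. They lie at chr11:47214724-47214973 on the plus strand for DDB2, chr3:14178602-14178851 on the minus strand for XPC and chr6:43575935-43576184 on the plus strand for POLH.
DDB2: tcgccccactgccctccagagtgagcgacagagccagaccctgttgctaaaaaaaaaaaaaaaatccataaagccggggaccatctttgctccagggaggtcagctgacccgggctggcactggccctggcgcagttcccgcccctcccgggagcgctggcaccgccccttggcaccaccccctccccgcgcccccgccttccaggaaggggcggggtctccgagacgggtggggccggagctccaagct
XPC: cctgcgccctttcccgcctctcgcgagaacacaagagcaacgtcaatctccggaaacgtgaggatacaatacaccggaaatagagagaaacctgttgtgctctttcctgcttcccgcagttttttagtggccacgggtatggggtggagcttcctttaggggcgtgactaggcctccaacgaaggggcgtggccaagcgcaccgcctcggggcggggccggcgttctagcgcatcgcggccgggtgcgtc
POLH: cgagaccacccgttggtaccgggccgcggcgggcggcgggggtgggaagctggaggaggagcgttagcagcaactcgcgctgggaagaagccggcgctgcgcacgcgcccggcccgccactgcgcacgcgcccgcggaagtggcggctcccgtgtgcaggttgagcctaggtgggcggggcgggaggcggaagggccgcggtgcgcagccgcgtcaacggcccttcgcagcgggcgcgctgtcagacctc

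A p53 half-site, a sequence of 10 bases that equals its own reverse complement as a pattern, was searched in windows running from 250 bases before to 50 bases after each start site, with pairs allowed 2 mismatches in all and 0 to 13 bases between them. All 6 genes matched the RefSeq table, with 8 start sites in all. Exact half-sites were found only in the window of DDB2's second start site, which held 2, at bases 6 and 17, and 6 overlapping pairs within 2 mismatches. Among 35116 windows of the table, 6.632% held an exact half-site, 7.823% a pair within 2 mismatches and 0.028% a pair of exact half-sites. No match in the other 7 windows says only that these letters are not there.

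DDB1, the partner of DDB2 that also links substrates to the CUL4 ubiquitin ligase, was called higher in H460 at 8, 12 and 24 h. The gene lies at chr11:61299451-61333105. In H460 its arrays ran between 9.36 and 9.83 at 0 h with a median of 9.59, and read 9.46, 9.44 and 9.12 at 2 h and 9.80, 9.55 and 9.47 at 4 h. They then read 9.98, 9.98 and 9.96 at 8 h, 10.09, 10.10 and 10.07 at 12 h, and 10.00, 9.93 and 10.02 at 24 h. Arrays from 8 h on lay above every 0 h array, and those at 2 and 4 h overlapped 0 h.

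DDB1 in H460 changed by -0.27 ± 0.099 at 2 h (limma, adjusted p = 0.0323), by -0.0059 at 4 h (adjusted p = 0.986), by 0.36 at 8 h (adjusted p = 0.0151), by 0.48 at 12 h (1.39-fold; adjusted p = 0.00106) and by 0.37 at 24 h (adjusted p = 0.00651). None was called once array width was in the model, and the values were 0.11 at 2 h, 0.14 at 8 h, 0.22 at 12 h and 0.14 at 24 h (limma, adjusted p between 0.38 and 0.892). The 2 h call ended without H460 0 h replicate 4 or 6 or H460 2 h replicate 3, with changes between -0.24 and -0.16, and the 8 h call without any 1 of the 3 arrays at 8 h, with changes between 0.36 and 0.37 (limma, adjusted p between 0.0517 and 0.0689).

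In H1299 DDB1 ran between 9.78 and 10.27 at 0 h with a median of 10.16. It read 9.90, 10.11 and 10.05 at 2 h, 10.30, 10.26 and 10.26 at 4 h, 10.28, 10.31 and 10.39 at 8 h, 10.23, 10.24 and 10.23 at 12 h, and 10.06, 9.99 and 10.14 at 24 h. The arrays at 8 h alone lay above every 0 h array. The change at 8 h was 0.22 ± 0.0787 (limma, adjusted p = 0.0457), and the other 4 times were not called. That call ended without H1299 0 h replicate 1, 2 or 5, without any 1 array at 4, 8 or 12 h, and without 24 h replicate 1, with changes between 0.15 and 0.24 (limma, adjusted p between 0.0513 and 0.195). Beside array width it was 0.042 (adjusted p = 0.774).

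POLK, which bypasses bulky adducts on guanine, was lower at 2 h in H460 and higher at all 5 later times in H1299. The gene lies at chr5:75510774-75609991. Its H460 arrays ran between 6.81 and 7.37 at 0 h with a median of 7.04, and read 6.50, 6.33 and 5.63 at 2 h. They read 7.09, 6.60 and 6.89 at 4 h, 7.33, 7.23 and 7.39 at 8 h, 7.62, 7.37 and 7.51 at 12 h, and 7.16, 7.54 and 7.32 at 24 h. The 2 h arrays lay below every 0 h array, and those of all later times overlapped 0 h.

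In H460 POLK fell by 0.91 ± 0.153 at 2 h (0.534-fold; limma, adjusted p = 0.000145) and rose by 0.44 at 12 h (1.36-fold; adjusted p = 0.0294). It had -0.20 at 4 h, 0.26 at 8 h and 0.29 at 24 h (limma, adjusted p between 0.161 and 0.527). The H460 arrays at 2 h were the narrowest of all groups, and beside array width the 2 h change was -0.28 (limma, adjusted p = 0.799) and the 12 h change 0.029 (adjusted p = 0.962). The 12 h call also ended without H460 0 h replicate 1 or 5 or H460 12 h replicate 1 or 3, with changes between 0.38 and 0.44 (limma, adjusted p between 0.0565 and 0.121).

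In H1299 POLK ran between 6.08 and 6.59 at 0 h with a median of 6.43. It read 6.53, 6.85 and 6.88 at 2 h, 7.05, 7.01 and 6.93 at 4 h, 6.92, 7.10 and 7.14 at 8 h, 7.01, 7.40 and 7.11 at 12 h, and 6.84, 6.87 and 6.93 at 24 h. Arrays from 4 h on lay above every 0 h array. POLK rose by 0.38 ± 0.109 at 2 h (1.30-fold; limma, adjusted p = 0.0219), by 0.62 at 4 h (1.54-fold; adjusted p = 0.000244), by 0.68 at 8 h (adjusted p = 6.21e-05), by 0.80 at 12 h (1.74-fold; adjusted p = 5.7e-06) and by 0.50 at 24 h (1.42-fold; adjusted p = 0.00271). Beside array width the 5 changes ran between 0.40 and 0.52 and were all called, with 0.41 at 8 h and 0.51 at 12 h. Without H1299 2 h replicate 2 or 3 the 2 h change was 0.31 to 0.33 (limma, adjusted p between 0.116 and 0.146).

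REV3L, the catalytic subunit of polymerase zeta, rose at every later time in H1299 and fell at 2 h in H460. The gene lies at chr6:111299033-111483711. In H460 its arrays ran between 7.00 and 7.36 at 0 h with a median of 7.20, and read 7.18, 6.62 and 6.22 at 2 h. They read 7.70, 7.24 and 7.40 at 4 h, 7.46, 7.58 and 7.52 at 8 h, 7.56, 7.59 and 7.60 at 12 h, and 7.06, 7.31 and 7.22 at 24 h. Arrays at 8 and 12 h lay above every 0 h array.

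In H460 REV3L fell by 0.51 ± 0.143 at 2 h (0.70-fold; limma, adjusted p = 0.00657) and rose by 0.40 at 12 h (adjusted p = 0.0359). The changes at 4, 8 and 24 h were 0.26, 0.33 and 0.0074 (limma, adjusted p between 0.108 and 0.974). Beside array width they were -0.030 at 2 h and 0.075 at 12 h, neither called (limma, adjusted p = 0.985 and 0.896). Without H460 2 h replicate 3 the 2 h change was -0.29 (limma, adjusted p = 0.12). The 12 h call ended without H460 0 h replicate 2, 3 or 5 or any 1 of the 3 arrays at 12 h, with changes between 0.36 and 0.41 (limma, adjusted p between 0.0534 and 0.1), and 8 h was called at 0.33 without H460 2 h replicate 1 or 3.

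In H1299 REV3L ran between 7.47 and 7.94 at 0 h with a median of 7.78. It read 8.10, 8.39 and 8.33 at 2 h, 8.52, 8.37 and 8.30 at 4 h, 8.45, 8.42 and 8.42 at 8 h, 8.37, 8.43 and 8.34 at 12 h, and 8.04, 8.12 and 8.17 at 24 h. All 15 later arrays lay above every 0 h array. REV3L rose by 0.53 ± 0.0866 at 2 h (1.45-fold; limma, adjusted p = 0.000295), by 0.66 at 4 h (adjusted p = 1.07e-05), by 0.69 at 8 h (1.61-fold; adjusted p = 3.34e-06), by 0.64 at 12 h (adjusted p = 5.04e-06) and by 0.37 at 24 h (1.29-fold; adjusted p = 0.00562). All 5 were also called beside array width, at 0.29 to 0.58. The arrays of 2, 4, 8 and 12 h overlapped their neighbours in the order of levels.

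**Figure D2:**
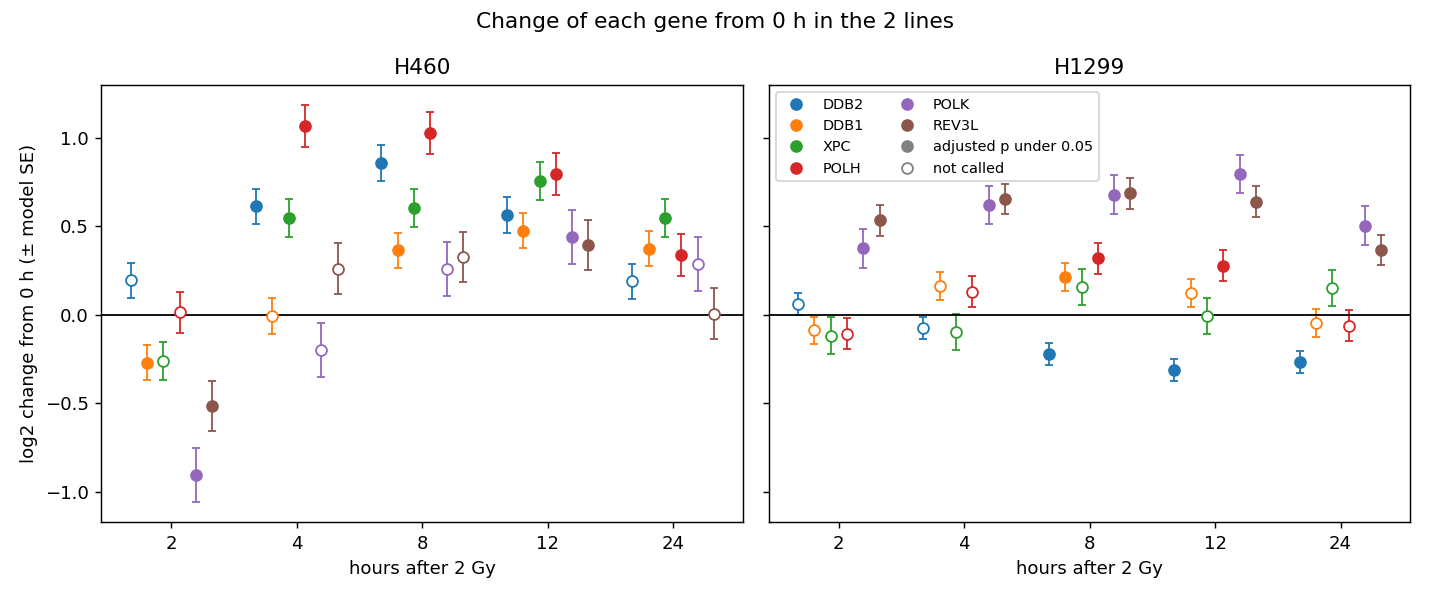
Log2 change of each gene from 0 h (vertical axis, bars are model standard errors) at each time after 2 Gy (horizontal axis) in H460 and in H1299, 1 colour per gene, filled where the adjusted p was under 0.05. In H460 DDB2, XPC and POLH stand at 0.61, 0.55 and 1.07 at 4 h, and in H1299 POLK and REV3L are called at all 5 times.

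Over the whole course, a quadratic regression on hours called 4 of the 6 genes in H460, against 41.9% of all genes. These were DDB2 (limma, adjusted p = 5.58e-05), XPC (adjusted p = 0.000142), POLH (adjusted p = 0.000229) and DDB1 (adjusted p = 0.00129), and POLK and REV3L had adjusted p = 0.0555 and 0.0552. Both were called with 1 mean per time point (limma, adjusted p = 7e-06 for POLK and 0.000373 for REV3L). Neither was called beside array width (limma, adjusted p = 0.686 for POLK and 0.0804 for REV3L) or after quantile normalization (adjusted p = 0.194 and 0.153). They were called without H460 0 h replicate 4 or 6 or 2 h replicate 3, POLK without 0 h replicate 3 and REV3L without 0 h replicate 1 (adjusted p between 0.0125 and 0.0471). DDB1 had adjusted p = 0.203 beside array width. In H1299 the regression called 5 of 6, against 36.5% of all genes: POLK (limma, adjusted p = 4.68e-06), REV3L (adjusted p = 5.9e-05), DDB2 (adjusted p = 0.000167), POLH (adjusted p = 0.00259) and DDB1 (adjusted p = 0.0399), with XPC at 0.284. The DDB1 call ended without H1299 0 h replicate 5, any 1 array at 4 or 8 h, 12 h replicate 2, or 24 h replicate 1 or 2 (limma, adjusted p between 0.0509 and 0.0899).

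Between consecutive times, the step with most calls was 4 h against 2 h in H460, where 5 of 6 genes were higher, against 18.4% of all genes. POLH rose by 1.06 (limma, adjusted p = 4.26e-05), XPC by 0.81 (adjusted p = 0.00019), REV3L by 0.78 (adjusted p = 0.00186), POLK by 0.71 (adjusted p = 0.00467) and DDB2 by 0.42 (adjusted p = 0.00811). None of these 5 was called beside array width (limma, adjusted p between 0.579 and 0.984). The 2 h arrays are the narrowest of the line and overlap no other time in width, so step and width can hardly be told apart. Without H460 2 h replicate 3 the POLK step was 0.45, and without 2 h replicate 1 DDB1 was called too, at 0.32. By limma, 0 of 6 genes were called at the later steps in H460 (3, 1 and 3 at an unadjusted p under 0.05), where 6.12% of all genes were called between 4 and 8 h, 0.283% between 8 and 12 h and 1.95% between 12 and 24 h.

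Some of these later steps in H460 were called without 1 array. DDB1 between 4 and 8 h was called at 0.37 to 0.47 without 0 h replicate 1, 2 or 6, 2 h replicate 1 or 3, or 4 h replicate 1, and POLK at 0.45 without 2 h replicate 3. DDB2 between 12 and 24 h was called at -0.37 without 0 h replicate 1. The step of POLH between 12 and 24 h was -0.45 in H460 (limma, adjusted p = 0.0838), called without 2 h replicate 3 (adjusted p = 0.0321) and beside array width (-0.43; adjusted p = 0.0398). In H1299 it was -0.34 (limma, adjusted p = 0.0386), the 1 call of the 6 at that step, against 5.11% of all genes called lower. That call ended without any 1 array at 12 h or 24 h replicate 1 or 2, at -0.34 to -0.32, and beside array width, at -0.20 (limma, adjusted p = 0.0847). REV3L had -0.27 at that step in H1299 and was called without 0 h replicate 2 (limma, adjusted p = 0.0322).

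The next question was whether the lines changed differently, tested as the H460 change minus the H1299 change over all 42 arrays. At 2 h, 2 of the 6 genes were called lower, against 18.5% of all genes, and at 4 h 3 were higher and 1 lower, against 3.21% and 5.33%. At 8 h 3 were higher, against 6.56%, at 12 h 3, against 5.21%, and at 24 h 2, against 7.75%. DDB2 was called at 4, 8, 12 and 24 h, with differences of 0.69 ± 0.112 (limma, adjusted p = 0.000139), 1.08 (adjusted p = 1.31e-08), 0.88 (adjusted p = 8.5e-07) and 0.46 (adjusted p = 0.00433). POLH differed by 0.94 ± 0.15 at 4 h (limma, adjusted p = 0.000102), by 0.71 at 8 h (adjusted p = 0.00183) and by 0.52 at 12 h (adjusted p = 0.0229). XPC differed by 0.64 ± 0.145 at 4 h (limma, adjusted p = 0.00414), by 0.45 at 8 h (adjusted p = 0.0399) and by 0.76 at 12 h (adjusted p = 0.000456). For these 3 genes the H460 change was thus the larger one at 4, 8 and 12 h.

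The XPC call at 8 h ended without H460 0 h replicate 1 or 2, H1299 0 h replicate 3, 4 or 6, any 1 H460 array at 8 h, or H1299 8 h replicate 1 or 2, with differences between 0.38 and 0.45 (limma, adjusted p between 0.061 and 0.126). The POLH call at 12 h ended without H460 12 h replicate 2 or H1299 12 h replicate 1 or 3, with 0.47 to 0.52 (adjusted p between 0.0511 and 0.0788). Of 10 other settings, 3 ended the XPC call at 8 h, among them the replicate block (0.47; limma, adjusted p = 0.059). The replicate block alone ended the POLH call at 12 h (0.54; limma, adjusted p = 0.0528). The other calls of DDB2, XPC and POLH held in all 10, array width as a covariate among them. At 24 h POLH had 0.40 (limma, adjusted p = 0.0711), and was called without H460 0 h replicate 6, H460 2 h replicate 3 or H1299 0 h replicate 2, with 0.40 to 0.48. XPC at 24 h had 0.39 (adjusted p = 0.067) and was called without H460 0 h replicate 6 or H1299 0 h replicate 1 or 2, with 0.44.

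DDB1 differed by 0.42 ± 0.127 at 24 h (limma, adjusted p = 0.0227), with 0.35 at 12 h (adjusted p = 0.0778). The 24 h call ended without H460 24 h replicate 1 or 3 or H1299 24 h replicate 2, at 0.38 to 0.41 (limma, adjusted p between 0.0505 and 0.074), and after adding array width, at 0.26 (adjusted p = 0.106). The 12 h difference was called without H460 0 h replicate 6, H460 2 h replicate 3 or H1299 0 h replicate 2, at 0.35 to 0.42.

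For POLK and REV3L the sign ran the other way, with the H1299 change above the H460 change. POLK differed by -1.28 ± 0.195 at 2 h (limma, adjusted p = 7.56e-06) and by -0.82 at 4 h (adjusted p = 0.00613), and REV3L by -1.05 ± 0.172 at 2 h (adjusted p = 2.17e-05). The differences at 8, 12 and 24 h were -0.42, -0.36 and -0.22 for POLK and -0.36, -0.24 and -0.36 for REV3L, with no call. In the model with array width the 2 h differences were -0.74 for POLK (limma, adjusted p = 0.0139) and -0.63 for REV3L (adjusted p = 0.0271). In that model POLK was also called at 8, 12 and 24 h, between -0.51 and -0.47, and REV3L at 8 h (-0.42) and 24 h (-0.56).

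**Figure D3:**
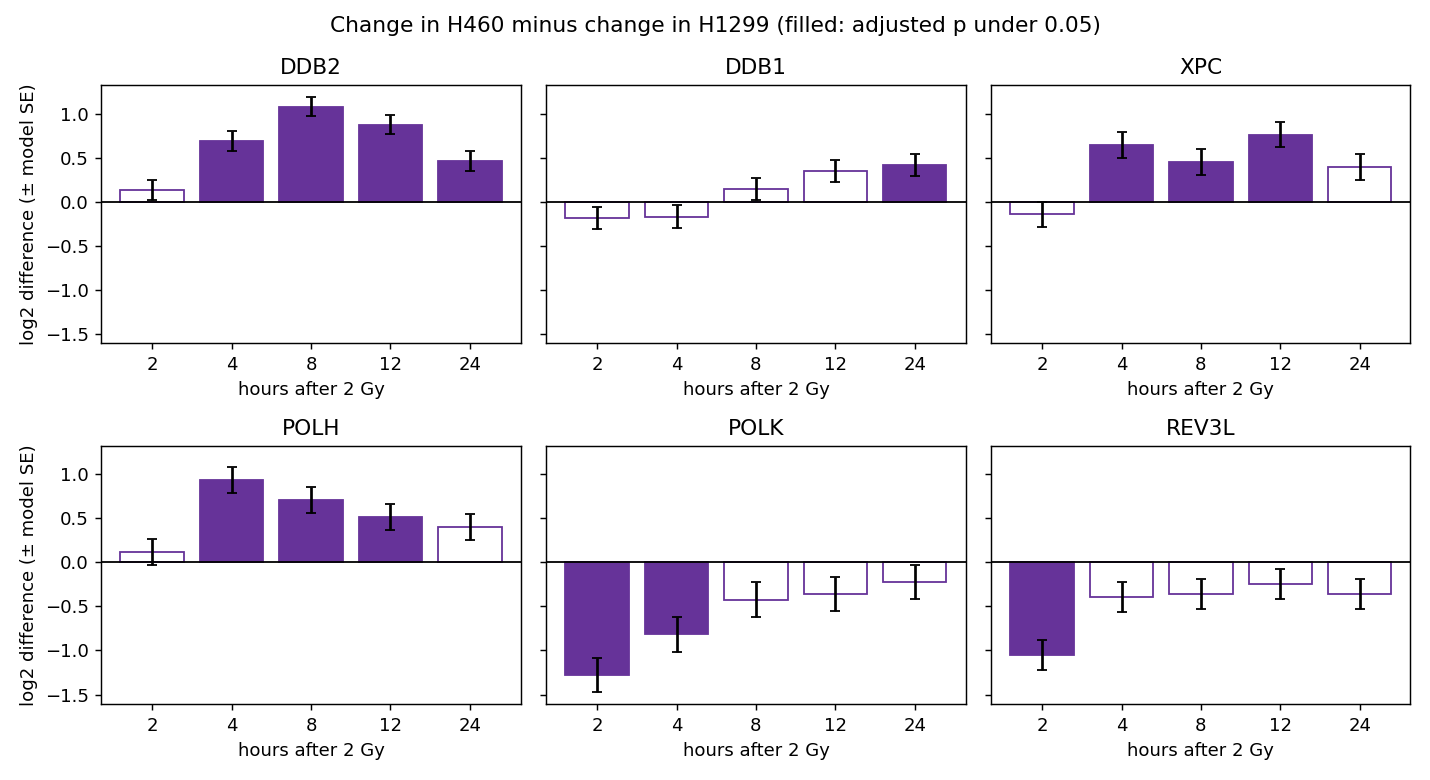
Change in H460 minus change in H1299 (vertical axis, log2, bars start at 0, whiskers are model standard errors) for each gene at each time after 2 Gy (horizontal axis), filled where the adjusted p was under 0.05. DDB2 reaches 1.08 at 8 h, POLH 0.94 at 4 h and XPC 0.76 at 12 h, while POLK and REV3L stand at -1.28 and -1.05 at 2 h.

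At 0 h the lines already differed, and 2 of the 6 genes were called higher and 3 lower in H460 than in H1299, against 26% and 29.1% of all genes. POLH was lower in H460 by 0.92 ± 0.105 (0.528-fold; limma, adjusted p = 2.38e-07), REV3L by 0.55 (adjusted p = 5.51e-05) and DDB1 by 0.50 (adjusted p = 0.000111). POLK was higher in H460 by 0.68 ± 0.111 (limma, adjusted p = 2.5e-05) and XPC by 0.52 (adjusted p = 0.000614). DDB2 had -0.19 ± 0.0857 (limma, adjusted p = 0.0683), and was called without H460 0 h replicate 2 or 6 at -0.23 to -0.22. The order of the lines varied with time: at 4 h the POLH arrays of the lines overlapped, while at 0, 2, 8, 12 and 24 h all H460 arrays of POLH lay below all H1299 arrays. DDB2 overlapped between the lines at 0 and 2 h and lay higher in H460 at 4, 8, 12 and 24 h. XPC lay higher in H460 from 2 h on.

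**Figure D4:**
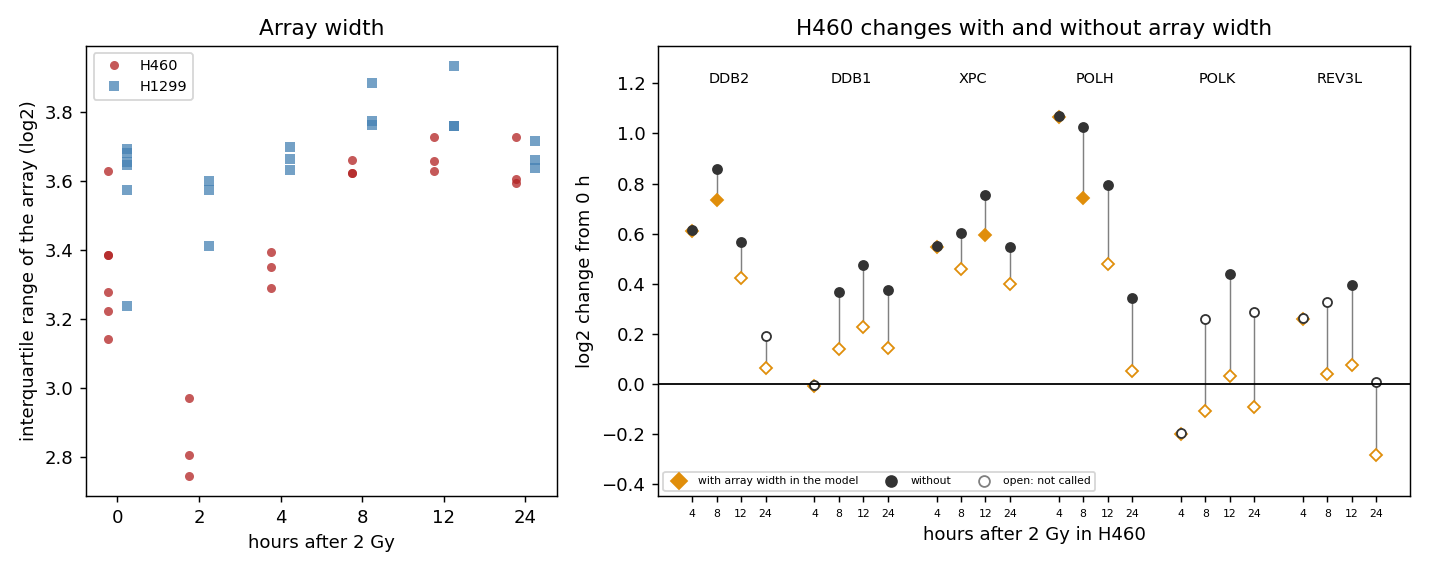
Left, interquartile range of each array's log2 values (vertical axis) by hours after 2 Gy (horizontal axis), circles for H460 and squares for H1299. Right, log2 change from 0 h of each gene in H460 at 4, 8, 12 and 24 h with array width in the model (diamonds) and without it (circles), filled where the adjusted p was under 0.05. At 4 h, where the H460 widths lie within those at 0 h, the 2 fits nearly coincide. DDB2 and POLH are called in both fits at 8 h, and XPC alone at 12 h.

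The other nucleotide excision repair genes had 24 of 28 list members measured. In H460 limma called 0 at 4 h (3 at an unadjusted p under 0.05), 6 higher and 0 lower at 8 h, and 8 higher and 1 lower at both 12 and 24 h, with medians of 0.19, 0.20 and 0.25 at 8, 12 and 24 h, against -0.03, -0.04 and -0.05 over all genes. Of all genes 10.7% were higher and 6.22% lower at 8 h, 16.7% and 16.8% at 12 h, and 16.2% and 12.4% at 24 h. At 12 h CDK7, the kinase of the repair and transcription factor TFIIH, rose by 0.66 (limma, adjusted p = 0.00045) and its cyclin CCNH by 0.49 (adjusted p = 0.00796). CUL4A, a scaffold of the ligase that DDB1 and DDB2 join, rose by 0.56 at 24 h (limma, adjusted p = 0.000568), and LIG1, the ligase that seals the gap, fell by 0.48 (adjusted p = 0.000485). At 2 h in H460 1 was higher and 11 lower, against 16.7% and 23.7% of all genes, with a median of -0.29 on the narrow arrays of that time, among them ERCC4, the 5′ endonuclease (-0.78; adjusted p = 0.000514).

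In H1299 the same list had 1 higher and 3 lower at 2 h, 2 and 1 at 4 h, 2 and 3 at 8 h, 4 and 4 at 12 h, and 2 and 1 at 24 h. Of all genes in H1299 5.88% were higher and 7.93% lower at 2 h, 10% and 5.83% at 4 h, 15% and 9.54% at 8 h, 16.6% and 13.1% at 12 h, and 8.53% and 3.21% at 24 h. At 12 h CUL4B, the paralogue of CUL4A, rose by 0.50 (limma, adjusted p = 2.1e-05) and RBX1, the RING subunit of the same ligase, fell by 0.49 (adjusted p = 0.00012). The difference between the lines was called higher for 1, 2, 5, 1 and 1 and lower for 7, 1, 0, 0 and 1 of the 24 at 2, 4, 8, 12 and 24 h. Over all genes it was called higher for 10.2%, 3.21%, 6.56%, 5.21% and 7.75% and lower for 18.5%, 5.33%, 3.55%, 3.47% and 4.7%. CETN2, which binds XPC, had differences of 0.64 at 4 h (limma, adjusted p = 0.0295) and 0.77 at 8 h (adjusted p = 0.00749). At 0 h 3 were higher and 16 lower in H460 than in H1299, against 26% and 29.1% of all genes, ERCC1 by -2.18 (limma, adjusted p = 3.27e-14) and ERCC2 by -2.14 (adjusted p = 1.31e-14).

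The other translesion synthesis and PCNA ubiquitination genes were all measured, 23 of 23. In H460 limma called 0 at 4 h (6 at an unadjusted p under 0.05), 6 higher and 2 lower at 8 h, 6 and 5 at 12 h and 3 and 6 at 24 h, beside the shares of all genes given above for those times. At 2 h 13 were lower, against 23.7% of all genes, with a median of -0.40 on the narrow arrays. PRIMPOL, which reprimes DNA synthesis past a lesion, rose by 0.89 at 8 h (limma, adjusted p = 0.00383). RAD18, the ligase that ubiquitinates PCNA, fell by 0.62 at 12 h (limma, adjusted p = 0.000412) and by 0.67 at 24 h (adjusted p = 0.000118). ATAD5, which unloads PCNA, fell by 0.78 at 12 h in H460 (limma, adjusted p = 0.000126).

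In H1299 8 genes of that list were higher and 3 lower at 2 h, 9 and 2 at 4 h, 10 and 3 at 8 h, 10 and 3 at 12 h, and 4 and 2 at 24 h. At these times 5.88%, 10%, 15%, 16.6% and 8.53% of all genes were higher and 7.93%, 5.83%, 9.54%, 13.1% and 3.21% lower. At 12 h the PCNA ligases SHPRH and HLTF rose by 0.69 (limma, adjusted p = 4.15e-07) and 0.56 (adjusted p = 1.72e-06), and POLQ, the polymerase of end joining, by 0.65 (adjusted p = 3.18e-06). REV1, the scaffold that holds the translesion polymerases, rose by 0.37 at 24 h (limma, adjusted p = 0.00259). ATAD5 rose by 0.83 at 4 h (adjusted p = 1.66e-07), and its difference between the lines was -1.16 (limma, adjusted p = 5.19e-06). The difference was called lower for 13, 6, 4, 5 and 4 and higher for 0, 1, 2, 2 and 0 of the 23 at 2, 4, 8, 12 and 24 h. Over all genes it was lower for 18.5%, 5.33%, 3.55%, 3.47% and 4.7% and higher for 10.2%, 3.21%, 6.56%, 5.21% and 7.75%. At 0 h 5 were higher and 10 lower in H460 than in H1299, against 26% and 29.1% of all genes, HLTF by -1.45 (limma, adjusted p = 2.87e-10).

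Of 17 measured members of 19 other p53 targets, 7, 14, 13, 12 and 11 were higher in H460 at 2, 4, 8, 12 and 24 h and 0, 0, 0, 1 and 0 lower. Of all genes 16.7%, 1.37%, 10.7%, 16.7% and 16.2% were higher and 23.7%, 1.55%, 6.22%, 16.8% and 12.4% lower. In H1299 1, 1, 3, 3 and 5 were higher and 1, 0, 1, 2 and 0 lower. There 5.88%, 10%, 15%, 16.6% and 8.53% of all genes were higher and 7.93%, 5.83%, 9.54%, 13.1% and 3.21% lower. FAS, the death receptor, rose by 1.39 at 4 h in H460 (limma, adjusted p = 2.57e-10) and GDF15, a secreted stress factor, by 1.74 (adjusted p = 2.08e-07). The difference between the lines was called higher for 4, 12, 14, 12 and 3 of the 17 and lower for 0. It was higher for 10.2%, 3.21%, 6.56%, 5.21% and 7.75% of all genes and lower for 18.5%, 5.33%, 3.55%, 3.47% and 4.7%. At 0 h 11 of the 17 were higher and 3 lower in H460 than in H1299, against 26% and 29.1% of all genes. At 4 h the median change in H460 was 0.90 over these targets and 0.41 over the 6 lesion recognition and bypass genes, against -0.03 over all genes.

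At 4 h in H460, where the means of CDKN1A and MDM2 were highest, DDB2, XPC and POLH were called higher and DDB1, POLK and REV3L were not called. DDB1 was called higher in H460 at 8, 12 and 24 h, and POLK and REV3L at 12 h in H460 and at all 5 times in H1299. Beside array width these H460 calls of DDB1, POLK and REV3L ended, and the H1299 calls of POLK and REV3L held. The H460 widths at 8, 12 and 24 h overlapped those at 0 h through 0 h replicate 6 alone or not at all. A call that ended there therefore does not tell a change from array width. A part of p53 in any of these changes was not tested.

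The genes were also set beside every other gene by the course of their group means, as a description. Likeness was Pearson's r over the 12 group means after subtracting each line's own mean, among 12140 genes whose means span at least 0.5 in 1 line or more. The points share their arrays and the array widths, so no test was made. Nearest to DDB2 were POP4 (r = 0.90), TAF12 and CMSS1, and nearest to XPC were CRYZL1 (r = 0.96), ST7 and OXSM. POLH was nearest to DCP1B (r = 0.97), TUBD1 and ACIN1, and DDB1 to TTC17 (r = 0.98), HTT and GCNT2. For POLK these were CLOCK (r = 0.995), ANKIB1 and CPSF2, and for REV3L they were RLF (r = 0.98), PRP4K and ZNF131. Among the 6 genes POLK was closest to DDB1 (r = 0.87) and REV3L (r = 0.85) and farthest from DDB2 (r = 0.12), while DDB2 was closest to POLH (r = 0.71).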

How the data were processed

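Messenger RNA was measured on 42 arrays in 12 groups. The authors deposited log2 values per probe set, and how they were normalized is not given in the sources used here. The values run from 1.45 to 14.22. The table had 32321 rows, of which 19158 had 1 gene symbol, and the highest row by mean was kept for each of 18404 genes, with no filter on dim genes. The 6 genes had 1 row each. No 2 arrays were identical (0 pairs).

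Changes at each time were contrasts against 0 h over the 21 arrays of a line with 1 mean per time (lmFit, then eBayes with a trend, of limma 3.58.1 under R 4.3.3). Time courses were quadratic regressions on hours, as the series names, tested by a moderated F-test. Differences between the lines used all 42 arrays, and 0 h the 12 arrays at 0 h. Tests were two-sided, adjusted by Benjamini-Hochberg over all genes with a threshold of 0.05. P-values measure the spread between these arrays, and their number limits the precision.

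Replicate numbers were checked for pairing: correlations of same-numbered deviations ran between -0.37 and 0.194 and were not all over 0.1 in any comparison, so the numbers were not taken as pairs. The procedures were tested on simulated data.

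All 6 genes are named whatever their values, CDKN1A and MDM2 as a check, and up to 4 called members of each list per comparison by smallest p. The genes and the 3 lists (nucleotide excision repair, translesion synthesis, p53 targets) were chosen with earlier results of these data known. Other settings were quantile normalization, median centring, array width as a covariate, eBayes without trend, robust eBayes, array weights, a filter leaving out 33.3% of genes, all rows, a replicate block, all 42 arrays, 0 h replicates 1 to 3 or 4 to 6, the square root of hours, 1 mean per time, and each array left out. Leaving out 4 narrow arrays (H460 at 2 h and H1299 0 h replicate 2) was chosen after seeing the data. Promoter sequences are from RefSeq, GRCh38.p14.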

Additional observations from a re-analysis of the deposited data

Results flagged for a closer look

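The H460 change differed from the H1299 change, by a limma test of the difference itself, in 14 of 30 combinations of gene and time. Over all genes the difference was called higher for 10.2%, 3.21%, 6.56%, 5.21% and 7.75% and lower for 18.5%, 5.33%, 3.55%, 3.47% and 4.7% at 2, 4, 8, 12 and 24 h. As given above, the calls of XPC at 8 h, POLH at 12 h and DDB1 at 24 h ended without some single arrays. Those of XPC at 8 h and POLH at 12 h also ended with the replicate block. For DDB2 the difference was 0.69 at 4 h, 1.08 at 8 h, 0.88 at 12 h and 0.46 at 24 h. XPC had 0.64 at 4 h, 0.45 at 8 h and 0.76 at 12 h, and POLH had 0.94 at 4 h, 0.71 at 8 h and 0.52 at 12 h. DDB1 was called at 24 h only, at 0.42. POLK stood at -1.28 at 2 h and -0.82 at 4 h, and REV3L at -1.05 at 2 h, where the H460 arrays were the narrowest. For the 12 sets of 6 arrays at 0 h, 1 for each gene and line, the gap of the highest or lowest array to its neighbour was divided by the range of the set. In none did this ratio pass Dixon's 95% critical value for 6 arrays, and it came closest for POLH in H1299, at 0.60 for replicate 2.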

How the results depend on the processing

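Counts of the 6 genes called moved by over 1.5 times as follows. With array width in the model H460 had 0, 2, 1 and 0 genes called at 2, 8, 12 and 24 h (3, 4, 6 and 3 as reported), H1299 had 3 at 8 h (5 as reported), and the 8 h difference had 5 (3 as reported). DDB1 at 2 h in H460 was the 1 called value whose sign turned, at 0.11, and some values that were not called changed sign too, such as POLK in H460 at 8 h (-0.11) and 24 h (-0.091). A single fit of all 42 arrays gave 5 for H460 and 1 for H1299 at 2 h (2 as reported for H1299). With 0 h replicates 4 to 6 only H460 had 1 at 24 h and H1299 had 1 at 2 h, and XPC at 4 h in H460 had 0.43 (adjusted p = 0.0521). Quantile normalization left 1 in H460 at 24 h and brought 4 for the 2 h difference (2 as reported). With smaller moves of the counts, it also ended the H460 calls of POLK (0.33; limma, adjusted p = 0.19) and REV3L (0.27; adjusted p = 0.209) at 12 h. DDB1 at 8 h in H460 was not called either (0.21; limma, adjusted p = 0.0956). At 2 h in H460 DDB1 (limma, adjusted p = 0.494) and REV3L (adjusted p = 0.0694) lost their calls. Array weights brought 5 differences at 8 h and 5 at 24 h (2 as reported), and without the 4 narrow arrays 4 were called at 24 h. The square root of hours gave 3 for the H1299 time course (5 as reported). The causes were not tested.

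Leaving out single arrays gave 1 to 4, 3 to 3, 3 to 5, 4 to 6 and 2 to 3 in H460 at 2, 4, 8, 12 and 24 h, and 4 to 6 for its time course. In H1299 it gave 1 to 3, 2 to 2, 3 to 5, 3 to 4 and 3 to 3, and 4 to 5 for the time course. The difference had 2 to 2, 4 to 4, 2 to 3, 2 to 4 and 1 to 4, and 0 h 5 to 6. With the replicate block 146 of 156 results kept their side of the threshold, 3 gained a call and 7 lost it. Lost were DDB2 in H1299 at 8 h (limma, adjusted p = 0.0781) and 24 h (adjusted p = 0.0501). The differences of XPC at 8 h (limma, adjusted p = 0.059) and POLH at 12 h (adjusted p = 0.0528) were lost too. So were DDB1 at 2 h (limma, adjusted p = 0.239) and REV3L at 12 h (adjusted p = 0.0603) in H460. The last was POLH between 12 and 24 h in H1299 (limma, adjusted p = 0.0608). Robust eBayes changed 0 of 156. Each gene had 1 row here, so the setting with another row of a gene was not run. The few arrays per time and the lack of detection calls limit what can be told of small changes.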
